A study of Mus musculus with 11 samples.

Results

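Imprinted growth genes were followed across all the OvTrpMyc cell lines of the series. The genes were chosen by a list of 10 names: H19 and Igf2, which share one locus, Dlk1, Meg3, and Rian, which share another, and Igf2r, Peg3, Mest, Plagl1, and Grb10. Of the 10, 8 had a row among the 28284 genes of the count table, and 7 passed the filter on low counts in every comparison. Dlk1 and Rian had no row in the table used here, which lists no gene with 0 counts in every library, so their levels were not analysed here.

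Bulk RNA was sequenced from 11 mouse cell lines of 7 mice, 1 library per line. Every line came from a mouse heterozygous for the transgene Ovgp1-Trp53-R270H-Myc on a C57BL/6 background, in which a promoter fragment of the oviduct gene Ovgp1 drives a dominant-negative p53 and the oncogene Myc from the Trp53 locus, so no line from a mouse without the transgene was among them. The study genotyped the cultured lines for the wild-type Trp53 allele, which lies on the same chromosome as Grb10, and saw no band of it in them. From copy-number calls on the RNA counts, it reported that this chromosome was often lost. Its methods state that the F361 cells no longer expressed the mutant p53. How many copies of the transgene or of the imprinted genes each line held was not analysed here. The mice were euthanized for tumor burden, and the cells were grown untreated in RPMI 1640 until they were dividing. By site, 7 lines were grown from ovaries (right and left, written ROV and LOV, of F318 and F364, and right of F319, F326, and F339), 2 from uteri of F319 and F333, 1 from a splenic tumor of F326, and 1 from a peritoneal tumor of F361. Lines of the same mouse are not independent, each line comes from one dissection, and p-values measure the spread between these lines.

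Imprinted genes are transcribed mostly or only from the allele inherited from one parent, under DNA methylation laid down in the germ line. Igf2 encodes the fetal growth factor IGF2 and is expressed from the paternal allele, whereas H19, a noncoding RNA next to it, is expressed from the maternal allele and shares its enhancers. Maternally expressed Igf2r encodes the receptor that carries IGF2 to the lysosome, and Grb10 an adaptor that dampens insulin and IGF1 receptor signaling. Dlk1, Peg3, Mest, and Plagl1 are paternally expressed, and Meg3 and Rian are maternal noncoding RNAs of the Dlk1 locus. Most of these genes fall after birth in most tissues, while H19 is known to persist in skeletal muscle. The mothers and fathers were of the same inbred strain, so counts cannot tell the alleles apart.

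The libraries were numbered 1 to 11 in the sample descriptions, and libraries 1 to 7 stood apart from libraries 8 to 11. Skeletal muscle fiber genes (37 with a row) took 7.77% to 15.2% of the counts in libraries 1 to 7 and 0.166% to 1.32% in libraries 8 to 11, and Y-linked genes summed to 128 to 174 CPM and to 1.75 to 19.2 CPM, where CPM is counts per 1000000 counts of the library. Females have no Y chromosome, so this RNA goes against the labels of lines grown from ovaries and uteri, most of all in libraries 1 to 7, and the mouse and site names below are those of the labels. The 8 epithelial markers summed to 2.88 to 147 CPM, highest in an ovary line of libraries 1 to 7, and 2 of the 8 stayed under 1 CPM in every line. Epcam had a median of 0 CPM and Pax8 of 0.127 CPM. The keratin gene Krt18 was lower in libraries 8 to 11 (log2 fold change -5.29, adjusted p = 0.013, edgeR). The 8 mesenchymal markers summed to 1359 to 35459 CPM. Totals ran from 13580525 to 27044598 counts, and 3 counts, taken as the floor of detection, equal 0.111 to 0.221 CPM. Libraries 1 to 7 hold 5 ovary lines and both tumor lines, and libraries 8 to 11 hold both uterus lines, F318 LOV, and F339 ROV. In bulk RNA, fewer cells of a type and less RNA per cell cannot be told apart.

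H19 lies at chr7:142575529-142578143 on the minus strand of GRCm38, and Igf2 at chr7:142650766-142666816 on the same strand. The promoter of Peg3, at chr7:6730370-6730669 on the minus strand, is shown because Peg3 had the largest fold range in CPM among the members with counts in every line, that of Grb10 at chr11:12037371-12037670 because it is among the densest in CpG, and that of Igf2 at chr7:142657447-142657746 because it is the start nearest the 3′ end of the 4 in the RefSeq table. Each covers 250 bases before to 50 after the start (RefSeq, GRCm38.p6), and capitals mark CG, the dinucleotide that imprinting methylates.
Peg3: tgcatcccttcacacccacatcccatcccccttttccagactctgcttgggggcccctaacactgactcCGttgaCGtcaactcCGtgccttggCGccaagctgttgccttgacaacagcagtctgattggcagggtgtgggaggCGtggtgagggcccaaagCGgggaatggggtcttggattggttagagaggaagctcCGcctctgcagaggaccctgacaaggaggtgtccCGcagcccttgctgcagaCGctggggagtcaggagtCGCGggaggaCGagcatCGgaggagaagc
Grb10: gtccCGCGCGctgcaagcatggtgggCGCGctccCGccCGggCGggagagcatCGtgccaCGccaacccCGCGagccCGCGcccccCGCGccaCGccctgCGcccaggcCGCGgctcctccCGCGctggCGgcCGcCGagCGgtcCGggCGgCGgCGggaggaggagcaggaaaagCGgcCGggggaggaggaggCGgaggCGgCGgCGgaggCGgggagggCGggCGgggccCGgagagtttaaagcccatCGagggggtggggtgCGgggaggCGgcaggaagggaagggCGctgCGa
Igf2: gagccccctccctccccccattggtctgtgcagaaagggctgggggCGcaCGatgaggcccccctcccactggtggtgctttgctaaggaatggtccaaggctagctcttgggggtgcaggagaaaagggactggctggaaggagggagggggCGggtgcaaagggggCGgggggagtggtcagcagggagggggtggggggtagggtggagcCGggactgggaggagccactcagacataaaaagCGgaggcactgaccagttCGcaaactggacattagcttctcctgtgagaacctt

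The table held 16 promoters of 9 of the 10 genes, and H19 was not in it. The Grb10 promoter holds 45 CG, at percentile 98.4 of the 32851 promoters in the table, whose median is 7. Peg3 holds 13, and the Igf2 start shown holds 7. GGGGCCCC, the core bound by PLAGL1, itself a member, occurs in 1 of the 16, that of Peg3, and in 1.08% of all promoters on either strand. CACGTG, the E-box bound by MYC, the transgene's second product, occurs in 2 of the 16, those of Igf2r and Plagl1, and in 7.15% of all. GCCATNTT, the core of YY1, occurs in none of the 16 and in 6.05% of all. A match is a run of letters and not a site.

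Several of the genes are also hosts of microRNAs, shown for H19, Igf2, and Mest because these hosts had counts in every line. The mature sequences are RefSeq's, with the seed (bases 2 to 8) in capitals, and no pair of them shares a seed. The libraries were made from polyadenylated RNA, so the microRNAs themselves were not measured.
mmu-miR-675-5p in H19, chr7:142577112-142577133: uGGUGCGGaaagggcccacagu
mmu-miR-675-3p in H19, chr7:142577078-142577099: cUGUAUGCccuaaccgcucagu
mmu-miR-483-5p in Igf2, chr7:142654968-142654989: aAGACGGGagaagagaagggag
mmu-miR-483-3p in Igf2, chr7:142654932-142654952: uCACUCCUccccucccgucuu
mmu-miR-335-5p in Mest, chr6:30741314-30741336: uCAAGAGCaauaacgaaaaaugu
mmu-miR-335-3p in Mest, chr6:30741354-30741375: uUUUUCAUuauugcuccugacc

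H19 was abundant in libraries 1 to 7 and fell in the others. It was at 378 CPM in F364 ROV, 456 CPM in the F326 splenic tumor line, 280 CPM in F364 LOV, 355 CPM in F326 ROV, 539 CPM in the F361 peritoneal tumor line, 857 CPM in F319 ROV, and 1563 CPM in F318 ROV. In libraries 8 to 11 it was at 64.6 CPM in F339 ROV, 3.97 CPM in F318 LOV, 13.2 CPM in the F319 uterus line, and 23.3 CPM in the F333 uterus line. Every library of 1 to 7 was therefore above every library of 8 to 11, and no neighboring lines in the order of levels had overlapping 95% Wilson intervals, which cover counting error only. The highest and lowest lines, F318 ROV and F318 LOV, came from the ovaries of the same mouse.

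Igf2, the ligand, had low counts and followed the same division. It ranged from 7.48 CPM in F364 ROV to 17.0 CPM in F326 ROV over libraries 1 to 7, with a median of 12.0 CPM. It was at 4.82 CPM in F339 ROV, 0.349 CPM in F318 LOV (8 counts), 0.813 CPM in the F319 uterus line (22 counts), and 0.557 CPM in the F333 uterus line (12 counts). The Wilson intervals of 8 of the 10 neighboring pairs overlapped, so the order within libraries 1 to 7 was not resolved for most lines. Igf2 shares exons with the antisense gene Igf2os, which had 34 counts over all lines, and the strand setting of the counting is not given in the sources used here. In GENCODE M21 it also shares exons with Gm49394, a protein-coding gene on the same strand at chr7:142650769-142669942, which has no row in the table. Whether the annotation used for counting held Gm49394 was not tested, and reads on exons of both genes can be left out of the counts, so the level of Igf2 and its ratios to other genes are uncertain.

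Scaled by exon length, H19 exceeded Igf2 in every line. The ratio of H19 to Igf2 in counts per kilobase of exon ran from 26.5 in F318 LOV to 388 in F318 ROV, and in the uterus lines it was 37.6 (F319) and 97.1 (F333). Both genes of the locus were low in libraries 8 to 11, and their ratio there was below the 48.5 to 388 of libraries 1 to 7 in 3 of 4 lines.

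Igf2r, the clearance receptor, had the smallest fold range, 3.99-fold in CPM, among the 7 members with counts in every line, and was highest in libraries 8 and 9. It was at 103 CPM in F364 ROV, 106 CPM in the F326 splenic tumor line, 125 CPM in F364 LOV, 109 CPM in F326 ROV, 73.4 CPM in the F361 line, 136 CPM in F319 ROV, and 151 CPM in F318 ROV. F339 ROV was at 266 CPM and F318 LOV at 293 CPM, above the other 9 lines, while the F319 uterus line at 109 CPM lay within libraries 1 to 7 and the F333 uterus line at 174 CPM above them. Igf2r lies at chr17:12682406-12769664, and its antisense partner Airn, with which it shares no exon, ranged from 1.39 CPM in the F333 uterus line to 11.1 CPM in the F326 splenic tumor line. Per kilobase of exon, Igf2r exceeded Igf2 by 3.19 to 9.92 times in libraries 1 to 7 and by 33.9 to 516 times in libraries 8 to 11, and these ranges did not overlap.

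Meg3 was near or below the floor throughout. It had 7 counts in F318 ROV (0.400 CPM), 3 in the F326 splenic tumor line, 3 in F318 LOV, 1 in the F333 uterus line, and 0 in the other 7 lines, which allows up to 0.111 to 0.221 CPM at 3 counts. The line F318 ROV alone was above the floor, and Meg3 was not tested. Another noncoding RNA of the locus, Mirg, was highest in the same line, at 5.54 CPM, against 0.235 to 1.33 CPM in the other 10. Dio3, at the far end of the locus, ranged from 0.0928 to 8.73 CPM. Meg3 lies at chr12:109541001-109571726, Dlk1 at chr12:109452823-109463336, and Rian at chr12:109603940-109661716, all on the plus strand.

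Peg3, which encodes a zinc finger protein, had a 1260-fold range in CPM, which rests on 6 counts in the lowest line. On the log2(CPM + 1) scale it spanned 8.03 and H19 8.30, and with a pseudocount of 0.1 the order turned, at 9.83 and 8.58. Peg3 was at 107 CPM in F364 ROV, 74.3 CPM in the F326 splenic tumor line, 237 CPM in F364 LOV, 98.1 CPM in F326 ROV, 52.7 CPM in the F361 line, 330 CPM in F319 ROV, and 275 CPM in F318 ROV. In libraries 8 to 11 it was at 14.6 CPM in F339 ROV, 0.262 CPM in F318 LOV (6 counts), 5.03 CPM in the F319 uterus line, and 3.16 CPM in the F333 uterus line. As with H19, every library of 1 to 7 was above every library of 8 to 11, and F318 LOV was the lowest. The neighbors Zim1, a zinc finger gene, and Usp29, a deubiquitinase gene, followed it. In libraries 1 to 7 Zim1 ranged from 3.94 to 32.3 CPM, and from 0.186 to 0.627 CPM in the others, and Usp29 had 10 to 97 counts per library against 2, 0, 0, and 2.

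**Figure D1:**
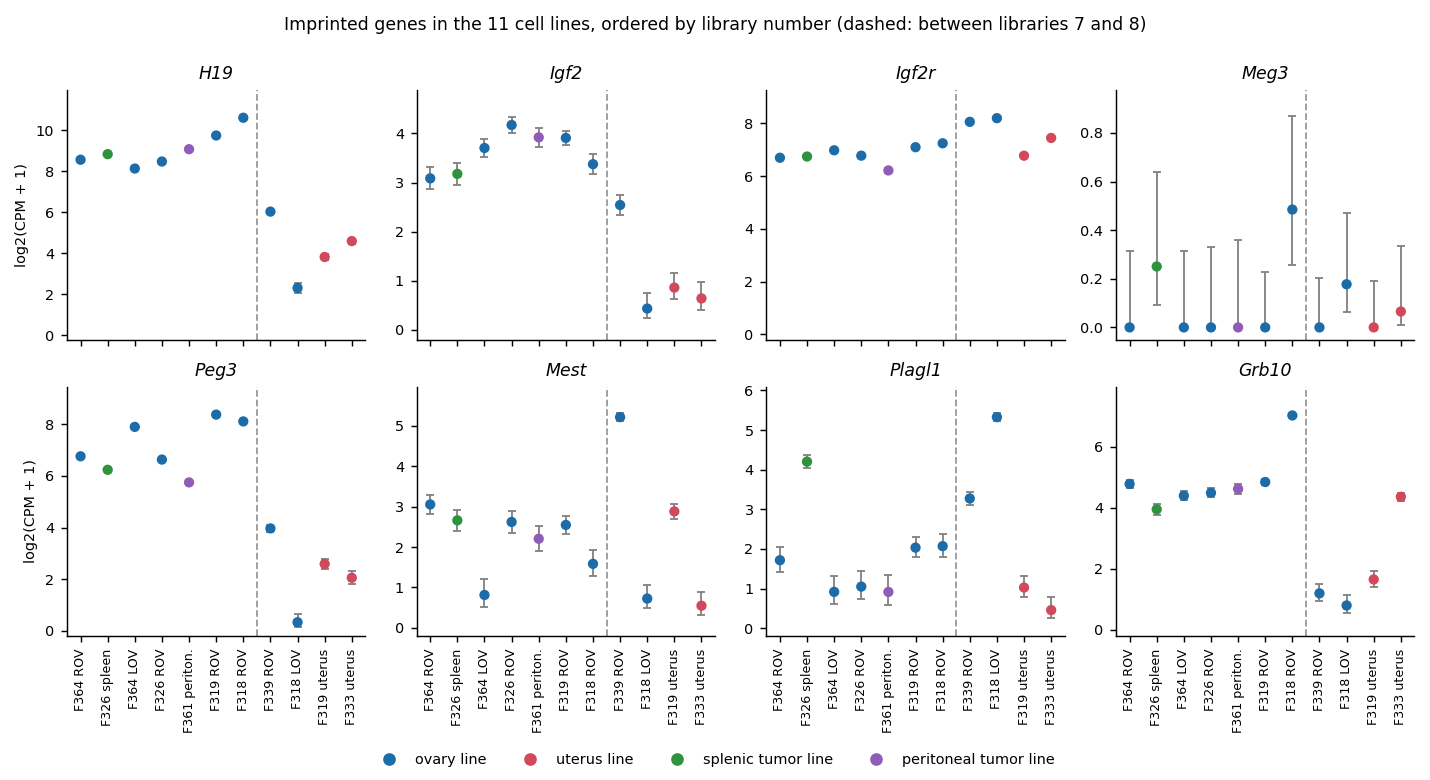
Levels of the 8 imprinted genes with a row, as log2(CPM + 1) on the vertical axis, in each of the 11 lines ordered by library number, with points colored by the site of the line and bars for the 95% Wilson interval of counting error. H19 and Peg3 drop at the dashed line between libraries 7 and 8, whereas Mest and Plagl1 peak in single lines and Meg3 stays near 0.

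Grb10, the adaptor, was high in 1 line and uneven in libraries 8 to 11. It was at 26.4 CPM in F364 ROV, 14.4 CPM in the F326 splenic tumor line, 20.0 CPM in F364 LOV, 21.4 CPM in F326 ROV, 23.5 CPM in the F361 line, 27.7 CPM in F319 ROV, and 129 CPM in F318 ROV. It was at 1.29 CPM in F339 ROV, 0.742 CPM in F318 LOV, 2.14 CPM in the F319 uterus line, and 19.5 CPM in the F333 uterus line. The F333 line was within the range of libraries 1 to 7, so the sets overlapped for this gene. F318 ROV was highest for H19, Meg3, and Grb10 alike.

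Mest, which encodes a protein of the hydrolase fold, and Plagl1, a zinc finger transcription factor, each had high lines of their own. Mest was at 36.0 CPM in F339 ROV and at 7.29 CPM in F364 ROV, the next highest, and its lowest levels were 0.464 CPM in the F333 uterus line, 0.655 CPM in F318 LOV, and 0.759 CPM in F364 LOV. The other 6 lines lay between 2.0 CPM in F318 ROV and 6.36 CPM in the F319 uterus line. Mest shares exons on the opposite strand with Copg2, which had 8531 counts over all lines, so its low values are uncertain.

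Plagl1 was at 39.1 CPM in F318 LOV, 17.4 CPM in the F326 splenic tumor line, and 8.67 CPM in F339 ROV. The other 8 lines lay between 0.371 CPM in the F333 uterus line (8 counts) and 3.20 CPM in F318 ROV. F318 LOV, which had the lowest H19, Igf2, Peg3, and Grb10 of all lines, thus had the highest Plagl1 and Igf2r. In counts per kilobase of exon and per 1000000 counts of the library, the median over lines was highest for H19 at 144, then 13.5 for Igf2r, 5.58 for Peg3, 2.20 for Grb10, 1.40 for Igf2, 1.23 for Mest, 0.292 for Plagl1, and 0 for Meg3.

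Libraries 8 to 11 were compared with libraries 1 to 7 to describe the division seen in these genes. The boundary was placed by the muscle fiber and Y-linked genes of the same libraries, so the comparison describes sets of libraries and no treatment. H19, Igf2, Peg3, and Grb10 were lower in libraries 8 to 11, and Igf2r, Mest, and Plagl1 did not pass the test. By edgeR's quasi-likelihood test with Benjamini-Hochberg adjustment over 15954 genes, 58.5% of all genes were called (28.6% higher and 29.9% lower), and of the 7 members 0 were higher and 4 lower. The median log2 fold change of the 7 was -2.84, beside 0.03 over all genes tested. Without overlap between the sets, 3 members (H19, Igf2, and Peg3) were lower, beside 17.1% of all genes. Scaling by library totals alone moved the median of all genes to 0.40 and the split from 4568 higher and 4769 lower to 6080 and 3734. With the mouse as a block, added after the data were seen, the calls were 3028 (19% of genes, 5.45% higher and 13.5% lower), and of the 7 members again 0 were higher and 4 lower. That fit has 3 residual degrees of freedom, and within mice it compares only the lines of F318 and F319, the 2 mice with lines in both sets.

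H19 had a log2 fold change of -4.90 (SE 0.78, adjusted p = 0.000351, edgeR), with all 4 libraries below all 7. Peg3 fell by 5.20 (SE 0.93, adjusted p = 0.000678, edgeR) and Igf2 by 3.24 (SE 0.69, adjusted p = 0.00182, edgeR) on the log2 scale. With 1 line left out, H19 ranged from -5.79 to -4.53, Peg3 from -6.19 to -4.80, and Igf2 from -4.69 to -2.90, the larger falls without F339 ROV and the smaller without F318 LOV, and these calls held. Grb10 fell by 2.84 (SE 0.96, adjusted p = 0.0237, edgeR), and its call was lost without F339 ROV (adjusted p = 0.0561), F318 LOV (0.0503), or the F319 uterus line (0.0631). The value ranged from -5.06 without the F333 uterus line to -2.22 without F318 ROV. Igf2r had a log2 fold change of 0.52 (SE 0.25, adjusted p = 0.0933, edgeR) and passed without the F319 uterus line (0.75, adjusted p = 0.00888). Mest (0.96, SE 0.93) and Plagl1 (1.16, SE 1.09) each took their sign from 1 line, since without F339 ROV the value for Mest was -1.14, and without F318 LOV that for Plagl1 was -0.71. With the mouse as a block, H19 was at -7.53 (adjusted p = 0.00359, edgeR), Peg3 at -7.89 (0.00708), Igf2 at -4.61 (0.00652), and Grb10 at -5.69 (0.0126), so these 4 kept their calls.

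Among ovary lines only (2 against 5, added after the data were seen), 40.7% of 16610 genes were called (18.6% higher and 22.1% lower). H19, Peg3, and Grb10 stayed lower, and the Igf2 call was lost at a log2 fold change of -2.58 (adjusted p = 0.0522, edgeR). In those lines Igf2r was higher by 0.82 (adjusted p = 0.0134, edgeR) and Plagl1 by 3.19 (adjusted p = 0.00747, edgeR).

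The muscle fiber and Y-linked genes placed the boundary, so their counts, 36 of 36 and 4 of 4 tested genes lower in libraries 8 to 11, restate it and test nothing. The 6 of 6 genes of developing muscle that were lower belong to the same tissue as the fiber genes, so they are no separate support. Of the other lists, 4 of 4 adipocyte genes, 4 of 5 blood genes, 3 of 5 endothelial genes, and 1 of 3 epithelial genes were lower. Of the mesenchymal genes, 5 of 8 were higher, beside 28.6% higher and 29.9% lower among all genes. In the fit with the mouse block, 6 of 6 developing muscle, 4 of 5 endothelial, 2 of 5 blood, and 1 of 4 adipocyte genes were lower. In that fit 0 of 8 mesenchymal and 0 of 3 epithelial genes were called, beside 5.45% higher and 13.5% lower among all genes. Their part in the result was not tested. Over the 11 lines, Pearson's r with the log2 muscle fiber share was 0.93 for H19, 0.91 for Igf2, 0.91 for Peg3, and 0.79 for Grb10, and these points fall into 2 clusters. Over the 7 lines of libraries 1 to 7 alone, r was -0.81 for H19, 0.42 for Igf2, -0.52 for Peg3, and -0.84 for Grb10. F318 ROV had the lowest muscle share of libraries 1 to 7, 7.77%, and the highest H19 and Grb10 (129 CPM). The other lines of that set had shares of 11.9% to 15.2% and Grb10 of 14.4 to 27.7 CPM. The r of Grb10 within the set therefore leans on 1 line, and r without it was not computed.

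**Figure D2:**
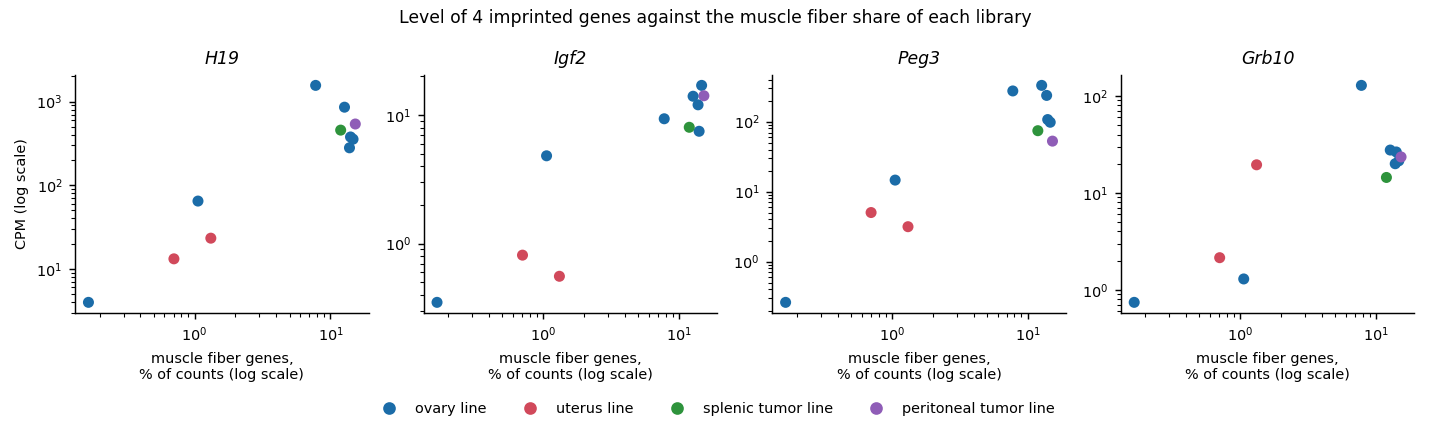
CPM of H19, Igf2, Peg3, and Grb10 (vertical axis, log scale) against the percent of counts on muscle fiber genes (horizontal axis, log scale), 1 point per line colored by site. The 7 points at 7.77% or more are libraries 1 to 7, and among them the line with the smallest muscle share has the highest H19 and Grb10.

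The uterus lines were compared with the ovary lines, the contrast of sites given by the labels. All 7 tested members had lower fitted means in the uterus lines, from -0.36 for Igf2r to -5.47 for Peg3 on the log2 scale, but none passed the test and none separated without overlap, beside 8.04% of all genes. The edgeR test called 0 of 17446 genes (0%), with 2308 (13.2%) at an unadjusted p under 0.05, among them 4 of the 7 members, and DESeq2 called 1297 (7.43%), 6.31% of genes being lower. H19 had a log2 fold change of -4.95 (SE 1.92, adjusted p = 0.359, edgeR), Igf2 of -4.03 (SE 1.31, adjusted p = 0.359, edgeR), and Plagl1 of -3.59 (SE 1.59, adjusted p = 0.359, edgeR). Leaving out F318 LOV brought Plagl1 to -2.32. DESeq2 called H19 (adjusted p = 0.00855), Igf2 (0.00622), Peg3 (0.00672), and Plagl1 (0.0433) lower. The muscle fiber share was 0.705% and 1.32% in the uterus lines and 0.166% to 14.7% in the ovary lines, and its part in these values was not tested. Both uterus lines are in libraries 8 to 11, where the F318 LOV ovary line was lower than both for H19, Igf2, and Peg3. Within libraries 8 to 11 (2 against 2), 0 of 15566 genes passed with 522 at an unadjusted p under 0.05, and the Grb10 value turned to 3.50 (adjusted p = 1.0, edgeR). With the library set as a term, none of the 7 passed. The values were -0.81 for H19, -0.80 for Peg3, -1.84 for Igf2, -0.90 for Igf2r, -2.42 for Mest, -5.04 for Plagl1 (adjusted p = 0.457, edgeR), and 3.54 for Grb10 (adjusted p = 0.916, edgeR).

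The splenic and peritoneal tumor lines were compared with the 5 ovary lines of libraries 1 to 7. Peg3 was at 74.3 and 52.7 CPM in the tumor lines against 98.1 to 330 CPM in the ovary lines, a log2 fold change of -1.55 (SE 0.51, adjusted p = 0.442, edgeR). With the mouse as a block, which here compares only the lines of F326, it was at -0.31 (adjusted p = 0.818, edgeR). It was the 1 member of the 7 without overlap, beside 12.7% of all genes lower without overlap. Plagl1 was at 17.4 CPM in the splenic line and 0.884 CPM in the peritoneal line, so its value of 2.30 (SE 0.86, adjusted p = 0.465, edgeR) rested on 1 line and was -1.08 without it and 4.10 with the block. H19 differed by -0.24 (SE 0.59), Igf2 by 0.02 (SE 0.40), Igf2r by -0.33 (SE 0.23), Mest by 0.27 (SE 0.76), and Grb10 by -1.0 (SE 0.72). Leaving out F318 ROV brought Grb10 to -0.22, and Igf2r was at -0.63 without the splenic and -0.085 without the peritoneal line. The muscle fiber share was 11.9% in the splenic and 15.2% in the peritoneal line, and 7.77% to 14.7% in these ovary lines. The edgeR test called 0 of 16299 genes (0%), with 1636 (10%) at an unadjusted p under 0.05, among them 2 of the 7 members, and DESeq2 called 405 (2.48%).

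**Figure D3:**
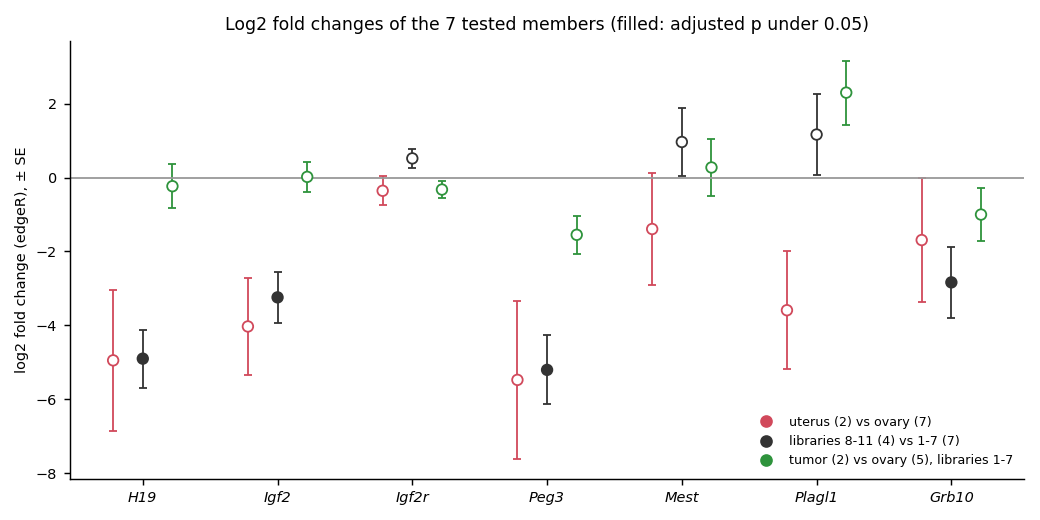
Log2 fold changes of the 7 tested members (vertical axis) with bars of 1 SE, from edgeR, in the comparisons of uterus with ovary lines, libraries 8 to 11 with 1 to 7, and tumor with ovary lines within libraries 1 to 7. Filled points, for H19, Igf2, Peg3, and Grb10 between the library sets, have an adjusted p under 0.05.

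Both ovaries of a mouse, or an ovary and another site, were cultured from 4 mice. The right and left ovary lines of F364 differed by a median of 0.62 over the 7 members on the log2(CPM + 1) scale, and the splenic and ovary lines of F326 by 0.40. Line pairs of different mice within libraries 1 to 7 had a median of 0.67 over 19 pairs. In F364, Mest was 9.60 times higher in the right than in the left ovary line, and Peg3 2.21 times higher in the left. In F326, Plagl1 was 16.3 times higher in the splenic than in the ovary line, while H19 was 1.28 times, Mest 1.03 times, and Igf2r 0.978 times its level in the ovary line. Igf2 was 2.12 times, Grb10 1.49 times, and Peg3 1.32 times higher in the ovary line.

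The pairs of F319 and F318 straddle the library sets and differed more. The Y-linked sum was 157 CPM in the ovary and 10.5 CPM in the uterus line of F319, with muscle fiber shares of 12.7% and 0.705%, and in F318 it was 131 CPM in the right and 1.75 CPM in the left line, with shares of 7.77% and 0.166%. These differences run along with the folds below, and their part in them was not tested. H19 was 65.1 times higher in the ovary than in the uterus line of F319, Peg3 65.6 times, Igf2 17.2 times, Grb10 12.9 times, and Plagl1 2.98 times, while Mest was 1.32 times higher in the uterus line. The right ovary line of F318 had 393 times the H19 of the left, 1049 times the Peg3 (6 counts in the left), 173 times the Grb10, 26.8 times the Igf2, and 3.05 times the Mest, while the left had 12.2 times the Plagl1 and 1.94 times the Igf2r. Mest and Plagl1 thus differed in opposite directions in these mice, as did Igf2r, which was 1.25 times higher in the ovary line of F319. The medians were 3.05 for F319 and 3.26 for F318, beside 2.53 over the 26 pairs of different mice that straddle the sets. With 1 library per line, the differences between lines of the same mouse have no replicate check.

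**Figure D4:**
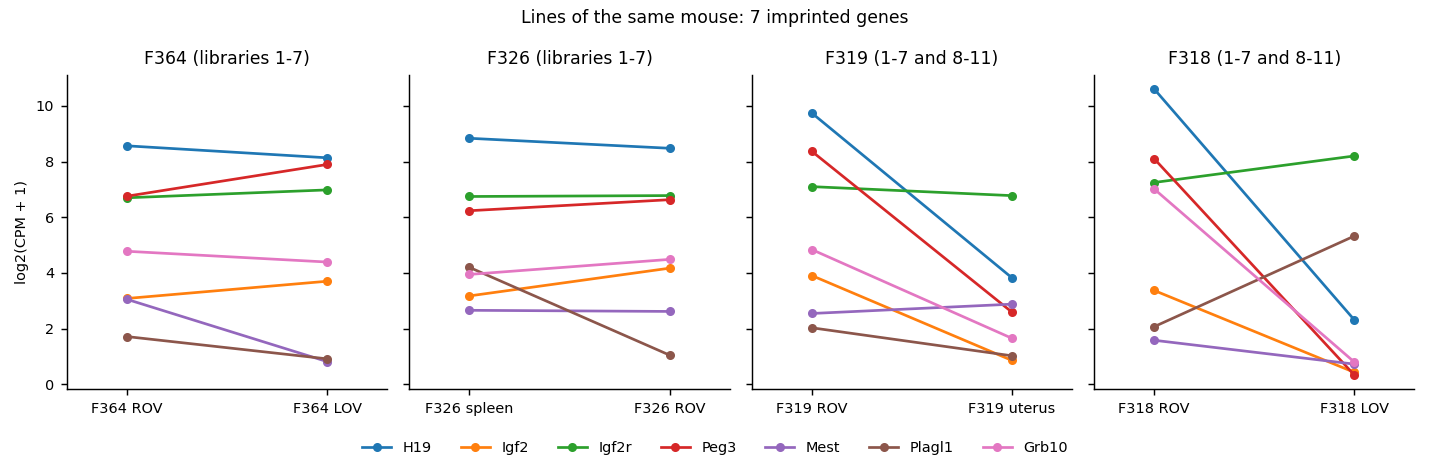
Levels of 7 imprinted genes as log2(CPM + 1) (vertical axis) in the lines of the same mouse, 1 panel per mouse and 1 line per gene. The lines of F364 and F326, within libraries 1 to 7, are close for most genes, and the lines of F319 and F318 fall steeply for H19, Peg3, Grb10, and Igf2.

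Other imprinted genes, from a list of 50 of which 46 had a row, moved in both directions between the library sets. Of the 36 tested, 7 were higher and 16 lower in libraries 8 to 11, with a median log2 fold change of -1.07, beside 28.6% higher and 29.9% lower among all genes. Zim1, next to Peg3, had a log2 fold change of -5.18, Asb4 of -4.20, Cdkn1c, the cell cycle inhibitor p57, of -3.95, Dcn, the proteoglycan decorin, of -3.87, and Slc38a4, an amino acid transporter gene, of -3.80. Usp29 was also called, but its counts were at or under the floor in all 4 libraries of 8 to 11. It passed the low-count filter through libraries 1 to 7, and the size of its fold is not resolved. In libraries 1 to 7 Cdkn1c was at 6.36 to 18.1 CPM and Dcn at 160 to 323 CPM. In the others Cdkn1c was at no more than 1.49 CPM and Dcn at 12.1 to 31.8 CPM, without overlap in either gene. With the mouse as a block, 0 of the 36 were higher and 7 lower, beside 5.45% and 13.5% of all genes, and Zim1, Usp29, Asb4, Cdkn1c, Dcn, and Slc38a4 were among the 7.

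Peg10, a gene derived from a retrotransposon, and its neighbor Sgce were both higher, by 3.91 (SE 0.83, adjusted p = 0.00182, edgeR) and 1.70 (SE 0.37, adjusted p = 0.00205, edgeR). Peg10 was at 0.147 CPM in the F361 line and 3.47 to 15.0 CPM in the other 6 libraries of 1 to 7, against 484 CPM in F339 ROV, 50.5 CPM in F318 LOV, 106 CPM in the F319 uterus line, and 44.7 CPM in the F333 uterus line. Sfmbt2 (3.51), between Peg10 and Sgce in size, Tnfrsf23 (1.53), and Copg2 (1.20), the antisense partner of Mest, were also among the 7. Under the mouse block none of these was called, with Peg10 at 2.69 (adjusted p = 0.0503, edgeR) and Sgce at 0.54 (adjusted p = 0.357, edgeR). Without the block, Airn, the antisense partner of Igf2r, had a log2 fold change of -1.16 and Gnas, which encodes a G protein subunit, of -1.36. Both calls were lost with it (adjusted p = 0.107 and 0.119, edgeR).

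**Figure D5:**
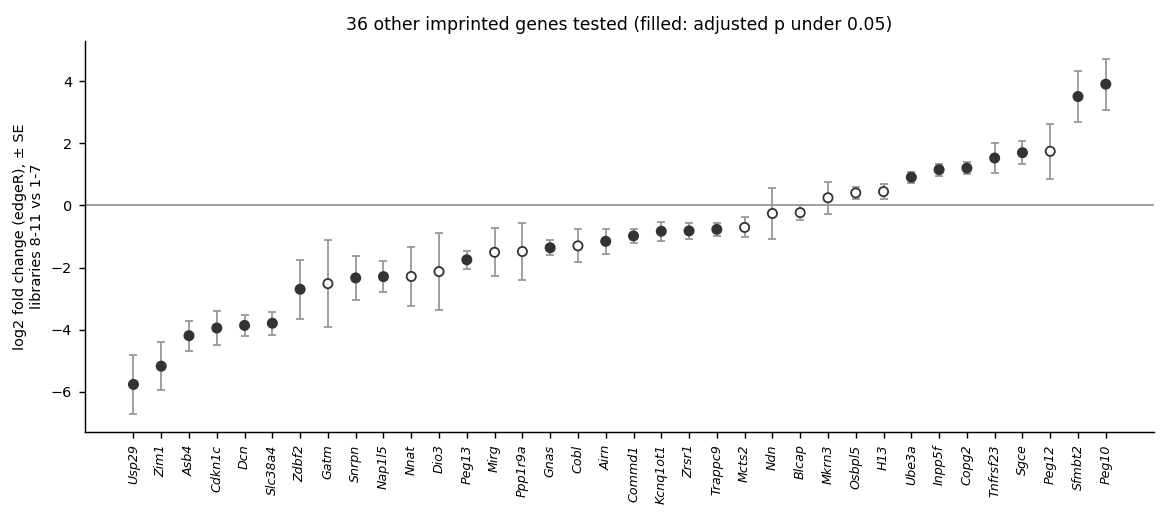
Log2 fold changes (vertical axis, libraries 8 to 11 against 1 to 7, with bars of 1 SE, from edgeR) of the 36 tested genes of the list of other imprinted genes, in ascending order. Filled points have an adjusted p under 0.05, 16 of them below 0 and 7 above, the latter led by Peg10 and Sfmbt2. The lowest points are Usp29 and Zim1, and Usp29 has counts at or under the floor in all 4 libraries of 8 to 11, so its value is not resolved.

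Of the other genes of IGF signaling, 6 of 16 tested were higher and 3 lower in libraries 8 to 11, together near the share called among all genes (28.6% higher and 29.9% lower). Igf1r, the receptor that transmits the IGF signal, ranged from 19.5 to 116 CPM in libraries 1 to 7 against 102 to 208 CPM in the others, a log2 fold change of 1.42 (SE 0.37, adjusted p = 0.0059, edgeR). Insr, the insulin receptor, fell by 1.40 (SE 0.25, adjusted p = 0.000677, edgeR). Pappa, a protease that frees IGF from its binding proteins, had a log2 fold change of 2.92, Igf2bp3, which binds Igf2 mRNA, of 2.60, Igfbp6 of 2.01, Igfbp7 of 1.61, and Igfbp4 of 1.54, while Igfbp3 was at -3.12 and Igfbp5 at -3.04. Igf1 did not pass (0.47) and ranged from 0.222 to 61.2 CPM. Both relatives of Plagl1 were higher, Plag1 by 1.67 and Plagl2 by 0.89, and of 6 genes of DLK and Notch signaling only Notch2 was called, at 1.10. With the mouse as a block, Pappa and Igfbp6 were higher and Insr, Igfbp2, and Igfbp3 lower, beside 5.45% higher and 13.5% lower among all genes. Not called in that fit were Igf1r (0.77, adjusted p = 0.353, edgeR), Igfbp5 (-0.72, adjusted p = 0.742, edgeR), Igf2bp3, Igfbp7, Igfbp4, Plag1, Plagl2, and Notch2.

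Among genes that keep or erase imprints, 5 of 11 tested were higher and 1 lower, a share near the 58.5% of all genes called. Dnmt1, the maintenance methyltransferase, had a log2 fold change of 1.60, its partner Uhrf1 of 2.17, and Zfp57 and Trim28, which bind imprinted regions, of 1.53 and 1.08. Ctcf, the insulator protein of the H19 and Igf2 locus, was at 0.40, the smallest of the calls, and Tet2, which oxidizes methylated cytosine, fell by 1.52. Under the mouse block Uhrf1 alone of the 11 was called (9.09%), beside 19% of all genes in that fit. In the comparisons of uterus with ovary and of tumor with ovary lines, edgeR called 0 genes of every one of these lists.

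The genes most like each member over the 11 lines were ranked by Pearson's r of log2(CPM + 1) among 14665 genes with a mean of at least 1 CPM. The nearest to H19 was Prkcq (r = 0.98), to Igf2 Inpp5d (0.98), and to Peg3 Entpd1 (0.98), followed by Sult1a1, Stab1, and Filip1. These r values follow the difference between the library sets, and within libraries 1 to 7 (n = 7) they were 0.75, 0.87, and 0.80. For Igf2r the nearest was Phka2 (0.96, and 0.92 within libraries 1 to 7), for Plagl1 Slc1a3 (0.91 and 0.78), for Mest Il1rn (0.91 and 0.74), for Grb10 2500002B13Rik (0.89 and 0.68), and for Meg3, at its few counts, Hoxa2 (0.92 and 0.96). Between members, H19 and Peg3 had r = 0.95 over all lines and 0.44 within libraries 1 to 7, and H19 and Igf2, which share a locus, 0.92 and -0.10. H19 and Grb10 had 0.83 and 0.83, with F318 ROV the highest line of both, and r without that line was not computed. Igf2r and Peg3 had -0.53 and 0.91.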

How the data were processed

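Bulk RNA from 11 cell lines was measured with poly(A) selection and a directional library kit. The authors aligned reads with RNA STAR to GRCm38 (mm10), removed duplicates with SAMtools RmDup, and deposited whole-number counts per gene symbol from featureCounts. Tool versions and the strand setting are not given in the sources used here. Groups came from sample titles, and library numbers from descriptions. Here counts were divided by library totals (13580525 to 27044598) to give CPM, with Wilson intervals at 95% confidence. The log2 scale uses CPM + 1. Gene positions and exon lengths came from GENCODE M21 on GRCm38. Differential expression used edgeR 4.0.16 (quasi-likelihood, TMM, filterByExpr) in R 4.3.3, with Benjamini-Hochberg adjusted p under 0.05 over all genes tested, and DESeq2 1.42.0 as an alternative. The fit was also run on simulated data with independent libraries and a single spread for all genes. No simulated lines shared a mouse, so that run does not test the fit on these lines. SE is the log2 fold change divided by the square root of the F statistic.

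The members and gene lists, and the division at library 8, were chosen with earlier results of these data known. All 10 members are named. Up to 5 called genes per direction were named from the other imprinted, IGF, Plagl1 relative, DLK and Notch, and imprint-keeping lists. The cell type and Y-linked lists were given as counts or sums, with Epcam, Pax8, and Krt18 alone named. For each member the 3 genes of highest r were ranked. Zim1, Usp29, Airn, Copg2, Sgce, Gnas, Mirg, Dio3, Cdkn1c, Igf1, and Igf1r were also named as neighbors or partners, some after their values were seen. Alternatives were another normalization, no filter, no muscle fiber genes, another pseudocount, library set as a term, each line left out, and, added after the data were seen, ovary lines only and the mouse as a block.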

Additional observations from a re-analysis of the deposited data

Results flagged for a closer look

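Meg3 in the 7 ovary lines was flagged for 1 line far from the others. F318 ROV, with 7 counts (0.400 CPM), lay apart from the next line by 0.634 of the whole range on the log2(CPM + 1) scale, above Dixon's critical value of 0.568. The next line, F318 LOV, had 3 counts, and the other 5 had 0. The Wilson intervals of the counts in F318 ROV and F318 LOV overlapped, so this gap was not resolved from counting error. A rate of about 1 flag in 20 by chance holds for normal values and not for Meg3, at 0 in 5 of the 7 lines. Of the 8 genes tested this way, Igf2 came closest to a further flag. Its lowest line, F318 LOV, lay just under the critical value at 0.564.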

How the results depend on the processing

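The labels carry no replicate numbers, but the line names give the mouse, and a fit with the mouse as a replicate block was added after the data were seen. Between the library sets it called 3028 genes in place of 9337, kept the calls of H19, Peg3, Igf2, and Grb10, and turned Mest to -0.77. It called 0 genes between uterus and ovary (2 residual degrees of freedom, Mest 0.12) and 0 between tumor and ovary (1 residual degree of freedom, H19 0.45, Igf2 -0.99, Igf2r 0.055, Peg3 -0.31), where 1 mouse in each has lines in both groups. The count of calls between the library sets was 9337 and ranged from 8526 to 9311 with 1 line left out, and H19 and Peg3 stayed called under every alternative run. DESeq2 gave Grb10 no adjusted p there. For uterus against ovary, calls went from 0 to 1297 with DESeq2 and to 2 without the low-count filter, and leaving out 1 line gave 0 to 1, the 1 without the F333 uterus line. For tumor against ovary, calls went from 0 to 405 with DESeq2, and leaving out 1 line gave 0 to 1, the 1 without F318 ROV. The cause was not tested. Some signs turned with 1 line left out, and the ranges then were -0.85 to 0.032 for Igf2r between uterus and ovary (turned without the F319 uterus line), and, between the library sets, -1.14 to 1.37 for Mest (without F339 ROV) and -0.71 to 2.35 for Plagl1 (without F318 LOV). Between tumor and ovary lines they were -0.41 to 0.23 for H19 (without F318 ROV), -0.45 to 0.36 for Igf2 (-0.093 without F364 ROV, -0.45 without F361, -0.072 without F318 ROV), and, without the splenic line, -0.047 to 0.66 for Mest and -1.08 to 3.22 for Plagl1. Without a change of sign, Grb10 ranged from -1.39 to -0.22 and Igf2r from -0.63 to -0.085 there, and between uterus and ovary Plagl1 ranged from -4.36 to -2.32, Grb10 from -4.18 to -0.80, and Mest from -4.06 to -0.38. A lone line in an arm is assumed to vary like the others. Grb10 between uterus and ovary turned within libraries 8 to 11 (3.50) and with the library set as a term (3.54), and Igf2 between tumor and ovary with library totals alone (-0.11). Igf2r passed between the library sets with library totals alone (0.87, adjusted p = 0.0139, edgeR). With a pseudocount of 0.1 in place of 1, the range over lines grew to 5.25 for Igf2, 2.32 for Meg3, and 6.0 for Mest on the log2 scale. At 3 counts or fewer, levels of Meg3 in 10 lines could not be resolved.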
